A study of Homo sapiens with 8 samples.

Results

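T047713 is a long non-coding RNA (lncRNA) target on chromosome 10 of a pooled CRISPRi growth screen, and it is covered by 7 of the 6862 sgRNAs that the count files list. Its sgRNAs were taken as all oligos whose target is given as T047713, and the sgRNAs of any other target with a transcription start site (TSS) within 50 kb were described beside them. The name of the target comes from MiTranscriptome, an RNA-seq based collection of human transcripts, and the files pair it with no gene symbol. The target was chosen because 2 of its 7 sgRNAs were called depleted after screening, so the loss of those 2 oligos is the value behind the choice and is given here as a description.

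The screen was run in SW620, an established human colorectal cancer cell line, and every library comes from SW620 cells that expressed a dCas9/KRAB fusion protein, received the lentiviral sgRNA library and were selected with puromycin. The 4 libraries before screening are labelled day 0, and the 4 libraries after screening are labelled day 17 in the sample titles and 18 days as cultured time. Each library is a table of raw read counts per sgRNA from amplified genomic DNA, with totals between 3417248 and 3999875. The infection was done 4 times independently, and whether libraries with the same replicate number share an infection is not given in the sources used here.

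In CRISPRi, a cutting-deficient Cas9 (dCas9) carries the KRAB repressor to the site that the sgRNA matches and lowers transcription that starts nearby. A cell that loses a transcript it needs for growth leaves fewer descendants, and its sgRNA becomes rarer in the genomic DNA of the pool. Cas9 binds next to a short motif called the PAM, read as NGG, and the bases of the sgRNA at its 3′ end, called the seed, contribute most to the recognition of a site. Several sgRNAs are placed on each lncRNA so that their counts can be compared with each other.

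The 7 sgRNAs of T047713 lie between 50 bp upstream and 228 bp downstream of its TSS, which the files place at position 103865806 of chromosome 10 on the plus strand. The files name no genome build. Of 54 chromosome 10 sgRNAs with an exact match in a RefSeq promoter window of GRCh38 on that chromosome, 0 had a file position within 1 kb of that window, so positions are printed as the files give them and were not set against GRCh38 genes. The oligos are shown 5′ to 3′ in the order of their positions, because neighbouring oligos on the same TSS went different ways. The capitals mark the last 10 bases, taken here as the seed.
YLQ5305: ctagcctggcTGATGTTGGT
YLQ5307: gggcttgggtTAGATGGTCT
YLQ5309: ttatgccgttGAGGGAGGGG
YLQ5310: ttcctgggatAGACTGCCTT
YLQ5311: tggctgccccATGACAGCTA
YLQ5312: aacagtcctgGGGTGAGAGG
YLQ5313: gagggagatgGGGCCAAGCT

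YLQ5305 is at position 103865756, YLQ5307 at 103865829, YLQ5309 at 103865875 and YLQ5310 at 103865898, all on the plus strand. YLQ5311 is at 103865942, YLQ5312 at 103865974 and YLQ5313 at 103866034, on the minus strand. Relative to the TSS they sit at -50, 23, 69, 92, 136, 168 and 228 bp in that order. The GC content is 55.0% for YLQ5305 and YLQ5307, 60.0% for YLQ5309, 50% for YLQ5310, 60.0% for YLQ5311 and YLQ5312, and 65.0% for YLQ5313. The median of all tested targeting sgRNAs is 50%. No other sgRNA of the library ends in the same 10 bases as any of these oligos, and none of the 7 oligos matched one of the 34943 RefSeq promoter windows of GRCh38 over its whole length.

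YLQ5309 and YLQ5312 lost 49.0% and 41.1% of their abundance during the culture, while the other 5 sgRNAs of T047713 did not pass the test in either direction. Both groups of libraries were compared with the quasi-likelihood test of edgeR over all 6587 sgRNAs with enough counts, and an sgRNA was called at a Benjamini-Hochberg adjusted p under 0.05. All 7 sgRNAs of T047713 passed the count filter. In the whole screen 0.698% of the tested sgRNAs were called depleted by this rule, and since T047713 was chosen on this contrast nothing is read from its count of 2 in 7. Abundances are given as RPM, read counts brought to a common library total of 1000000, and fold changes are log2 values after over before screening, with their standard error from the fit.

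YLQ5309, the sgRNA 69 bp downstream of the TSS, had 235, 262, 224 and 248 counts in replicates 1 to 4 before screening and 143, 93, 115 and 105 counts after screening. This is 58.8, 65.5, 64.5 and 64.5 RPM before and 37.1, 26.8, 33.4 and 30.7 RPM after screening. The highest library after screening lies well below the lowest library before screening. The mean was 63.3 ± 3.1 RPM (SD, n = 4) at the start and 32.0 ± 4.3 RPM (SD, n = 4) at the end, and the fitted log2 fold change was -0.97 (standard error 0.20), which leaves 51.0% of the starting level.

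YLQ5312, 168 bp downstream and on the other strand, had 382, 377, 312 and 305 counts before screening and 197, 171, 207 and 168 counts after screening. The values were 95.6, 94.3, 89.9 and 79.4 RPM before and 51.1, 49.3, 60.1 and 49.2 RPM after screening. Again the groups do not overlap. The mean was 89.8 ± 7.3 RPM (SD, n = 4) at the start and 52.4 ± 5.2 RPM (SD, n = 4) at the end, and the fitted log2 fold change was -0.76 (standard error 0.17), or 58.9% of the starting level. Separation of this kind, with every library after screening below every library before screening, was found for 2.75% of all tested sgRNAs. The values that led to the choice of the target were the adjusted p of these oligos, 0.0053 for YLQ5309 and 0.0086 for YLQ5312 from edgeR, and the nearest value outside the threshold among the 7 was 0.694 for YLQ5311, whose abundance was higher after screening.
The call of YLQ5312 was lost when certain single libraries before screening were left out, while its log2 fold change moved little. The whole screen lost calls too, from 46 depleted targeting sgRNAs to between 36 and 42 without 1 library before screening. When before screening replicate 1 was left out, edgeR gave it an adjusted p of 0.0829 and a log2 fold change of -0.73. When before screening replicate 2 was left out, these were 0.0660 and -0.74. Its adjusted p lay between 1.4e-05 and 0.0829 over all alternatives with a test.

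YLQ5311, between the depleted oligos at 136 bp, was not lower but higher in the libraries after screening. It had 232, 200, 226 and 217 counts before and 333, 237, 254 and 249 counts after screening. The mean was 57.4 ± 6.2 RPM (SD, n = 4) at the start and 75.3 ± 7.7 RPM (SD, n = 4) at the end. In RPM, all 4 libraries after screening lie above all 4 before screening, a separation found for 1.75% of all tested sgRNAs. Its log2 fold change was 0.41 (standard error 0.17), and it was not called. YLQ5311 and YLQ5312 are 32 bp apart on the same strand and have the same GC content of 60.0%.

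YLQ5310 lies 23 bp downstream of YLQ5309 on the same strand. It had 66.3, 66.3, 67.1 and 49.4 RPM before and 52.4, 71.6, 65.3 and 89.5 RPM after screening, and the groups overlap (log2 fold change 0.17, standard error 0.18). Its 2 highest libraries were taken after screening, and so was its second lowest.
YLQ5305, the single oligo upstream of the TSS, had 63.6, 55.0, 62.2 and 55.7 RPM before and 43.3, 41.6, 49.6 and 68.8 RPM after screening (log2 fold change -0.21, standard error 0.20). Of its libraries after screening 3 were below every library before screening, and replicate 4 was above all of them.
YLQ5307, 23 bp downstream, had 115.6, 121.0, 116.1 and 103.3 RPM before and 86.7, 94.7, 145.9 and 105.1 RPM after screening (log2 fold change -0.07, standard error 0.15). YLQ5313, the farthest oligo at 228 bp, had 143.9, 134.5, 117.2 and 145.5 RPM before and 185.8, 121.5, 133.2 and 137.2 RPM after screening (log2 fold change 0.11, standard error 0.13). The groups overlap for both oligos. The 95% interval of the log2 fold change (1.96 standard errors to each side) ran from -1.37 to -0.57 for YLQ5309 and from -1.09 to -0.43 for YLQ5312. Among the 5 sgRNAs that were not called it reached lowest for YLQ5305, to -0.59, and so overlapped those of both depleted oligos, whereas the other 4 intervals began at -0.35 or above. As the oligos are set apart here by their calls, these intervals are a description.

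The abundance of the 2 depleted sgRNAs together fell from 153 ± 6.6 to 84.4 ± 7.8 RPM (SD, n = 4 each), and that of the other 5 together was 428 ± 15 RPM before and 448 ± 35 RPM after screening. Along the target the order of the oligos was not called, not called, depleted, not called, not called, depleted, not called, with both depleted oligos 99 bp apart. The median log2 fold change of all 7 was -0.07, beside 0.01 over all 6126 tested targeting sgRNAs, and 4 of the 7 values were below 0. The 7 oligos started from means between 57.4 and 135 RPM, beside a median of 80.6 RPM over all tested targeting sgRNAs, and none of them was rare. YLQ5309, with 63.3 RPM, started next to YLQ5310 with 62.3 ± 8.6 RPM, YLQ5305 with 59.1 ± 4.4 RPM and YLQ5311 with 57.4 ± 6.2 RPM (SD, n = 4), and these starting levels overlap within their spread. The coefficient of variation between libraries was higher after screening for 6 of the 7 oligos, the exception being YLQ5311 with 10.8% before and 10.3% after. The coefficient of variation of the 7 oligos was 4.8% to 13.8% before and 9.9% to 24.5% after screening, and the depleted oligos, with 13.5% and 9.9% after screening, were among the 3 with the narrowest spread.

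Only 1 other target of the library has its TSS within 50 kb. T047724, also from MiTranscriptome and also on the plus strand, starts at position 103866200 of the files, 394 bp downstream of T047713, and is covered by 7 sgRNAs, all of which passed the count filter. None of them was called in either direction (lowest adjusted p 0.773 from edgeR), against 0.774% of all tested sgRNAs. At an unadjusted p under 0.05 there was 1 of the 7, YLQ5316, with a higher mean after screening, beside 6.19% of all tested sgRNAs at that threshold, and DESeq2 called 0 of the 7 as well. Their median log2 fold change was -0.15, and it was -0.01 over those with no library before screening under 100 counts and -0.04 without after screening replicate 1. These oligos were found by position alone, and each was also compared by an exact permutation test over the 8 libraries, two-sided, with p adjusted over the 7 oligos. The smallest p that 4 against 4 libraries allow is 0.0286.

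The first oligo of T047724, YLQ5314 at position 103866150, is 116 bp downstream of the last oligo of T047713. It was the most abundant of the 14 sgRNAs, with 366.6, 365.3, 390.9 and 331.3 RPM before and 333.5, 301.9, 327.0 and 340.3 RPM after screening, and its groups overlap (log2 fold change -0.15, standard error 0.08, exact permutation p = 0.0857, adjusted 0.300). YLQ5316, at the TSS of T047724, had 247.7, 254.8, 240.8 and 236.5 RPM before and 248.6, 291.2, 291.3 and 275.9 RPM after screening (log2 fold change 0.19, standard error 0.09, exact permutation p = 0.0571, adjusted 0.300). The deepest oligos of this locus are thus measured with the smallest errors, and neither passed the test.
YLQ5315, 19 bp upstream of the TSS of T047724, had a log2 fold change of -0.26 (standard error 0.24), YLQ5317 at 33 bp one of 0.14 (standard error 0.17) and YLQ5320 at 186 bp one of 0.18 (standard error 0.30). The remaining 2 had the widest intervals of the 7. YLQ5321, at 245 bp, had 31, 20, 25 and 33 counts before and 1, 43, 16 and 12 counts after screening (log2 fold change -0.45, standard error 0.65, 95% interval -1.72 to 0.82). YLQ5322, at 287 bp, had 89, 136, 105 and 104 counts before and 76, 41, 139 and 48 counts after screening (log2 fold change -0.39, standard error 0.33, 95% interval -1.03 to 0.25). A loss like that of YLQ5312 lies within both intervals. Exact permutation p values of these 5 oligos lay between 0.171 and 0.714. At this locus, the called sgRNAs were those at 69 and 168 bp from the TSS of T047713, with uncalled oligos at 92 and 136 bp between them. None was called among the 7 oligos placed from 344 to 681 bp downstream of it. With 0.774% of all tested sgRNAs called, 0 of 7 is near the share of the screen, and nothing about position is read from it.

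YLQ5309 and YLQ5312 share a feature of their sequence that the other 12 oligos lack. Both end in GG, as their capitals GAGGGAGGGG and GGGTGAGAGG show, whereas the remaining 5 oligos of T047713 end in GT, CT, TT, TA and CT. The pattern was noticed after the values were seen, and it is a description. In the whole screen 379 tested targeting sgRNAs end in GG, and 12 of them (3.17%) were called depleted, against 34 of 5747 with other ends (0.592%). The 12 include YLQ5309 and YLQ5312, on which the pattern was noticed. Most oligos that end in GG were not called, and they had a median log2 fold change of -0.01. Among all 461 tested non-targeting sgRNAs edgeR called 0 and DESeq2 2, and 42 had an unadjusted p under 0.05 from edgeR (9.11%), so that the 28 of them that end in GG, with 0 called and 2 at that threshold, give no comparison of the ends.

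The seeds of the 2 depleted oligos were also the ones found most often in promoters. With the 10 seed bases followed by NGG, searched on both strands of the 34943 RefSeq promoter windows of GRCh38 (250 bases before to 50 after a gene's start), GAGGGAGGGGNGG of YLQ5309 occurred in 112 windows (0.321%) and GGGTGAGAGGNGG of YLQ5312 in 16 (0.0458%). YLQ5313 followed with 4 windows, YLQ5311 with 2, YLQ5307 and YLQ5310 with 1 each and YLQ5305 with 0. The median over all tested targeting sgRNAs is 2 windows, and 9.08% of them have 10 or more. Among the oligos of T047724 the highest number was 13, for YLQ5320, which was not called and is shown for comparison with the depleted pair.
YLQ5320: ggtattgagtCAGGAGCTGA

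Across the screen, the share of depleted sgRNAs by this number was 1 of 1521 tested targeting sgRNAs (0.0657%) with 0 windows, 10 of 3228 (0.310%) with 1 to 4, 9 of 821 (1.10%) with 5 to 9, 25 of 542 (4.61%) with 10 to 99, and 1 of 14 (7.14%), which is YLQ5309 itself, with 100 or more. Of all 46 depleted sgRNAs 26 have 10 or more windows. Most oligos with many windows were not called, and the median log2 fold change with 10 or more was -0.02. The share also differed by GC content, with 0 of 669 depleted at 8 G and C bases, 9 of 747 at 12 and 6 of 450 at 14. Both depleted oligos of T047713 have 12 such bases. At 12 bases, 7 of 96 with 10 or more windows and 2 of 651 with fewer were depleted. The classes were set after the values were seen and the counts include both oligos of T047713. A seed match in a promoter window is a count of letters and not a measured binding site, and the part of seed matches in the loss of YLQ5309 and YLQ5312 was not tested.

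Among 953 targets with a tested sgRNA, 910 had no depleted sgRNA, 41 had 1, T047713 had 2, and 1 target had 3. The target with 3 is ENST00000438432.1, which holds the oligos that the study names for DARS-AS1. The pattern over the oligos of a target was compared by the distance between its lowest, second lowest and median log2 fold change and those of T047713 (-0.97, -0.76 and -0.07), over the 785 targets with at least 5 tested sgRNAs. By the second lowest value alone T047713 was at rank 6 and by the median at rank 115, while ENST00000438432.1 was at rank 1 in both, with -2.45 and -0.80.
The 3 targets most like T047713 were XR_242004.1 and NR_073063.1 on chromosome 6 and T153635 on chromosome 17, at distances of 0.11, 0.12 and 0.12. Their lowest oligos were not as well counted. XR_242004.1 had 1 depleted sgRNA, YLQ2055_XR_242004.1, with 162 ± 9.1 RPM (SD, n = 4) at the start and 100.2 ± 14.96 RPM (SD, n = 4) at the end, and its lowest oligo, YLQ2061_XR_242004.1, started at 5.93 ± 2.21 RPM and was not called. In NR_073063.1 and T153635 no sgRNA was called by edgeR or DESeq2 and 0 had an unadjusted p under 0.05 from edgeR. The 2 lowest oligos of each started at 6.09 to 14.4 RPM, against 63.3 and 89.8 RPM for the 2 lowest of T047713. The likeness is thus one of fitted values, and the error behind them differs.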

How the data were processed

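The values deposited by the authors are raw read counts of PCR-amplified sgRNAs, 1 file per library, without normalization. FastQC 0.11.2, Bowtie and hg38 stand in the submitters' processing notes without a role, and how reads were assigned to sgRNAs is not given in the sources used here. Libraries were grouped by their titles. Counts were filtered with filterByExpr, scaled by TMM (factors 0.993 to 1.01), and fitted by glmQLFit with robust = TRUE (edgeR 4.0.16, R 4.3.3; test by glmQLFTest) on the whole table of 8 libraries, with Benjamini-Hochberg adjustment over 6587 sgRNAs, of which 6126 are targeting and 461 non-targeting. RPM, exact permutation tests (70 groupings, on log2(RPM + 1)) and seed searches were computed in Python 3.11.15 with scipy 1.17.1. Promoter sequences are those of RefSeq for GRCh38. The edgeR, DESeq2 and two-tailed test fits were tried on simulated counts, and the seed searches were not. Counts are reads and not molecules, so counting error is a lower limit. The edgeR p values set the difference between the groups against the spread between these libraries, estimated with information from all sgRNAs. Within groups, every pair of libraries differed by more than sampling noise (chi-square per degree of freedom 4.91 to 11.8). The target and lists were chosen with earlier results of these data known. Named were all sgRNAs of T047713 and of targets within 50 kb, the 3 targets most like it and, for comparison, DARS-AS1. Alternatives were total-count and non-targeting scaling, DESeq2 1.42.0, other count filters, a replicate block, leaving out single libraries, the methods' two-tailed test, other pseudocounts and a correction for GC content. A genome in the files' coordinates was not used here.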

Additional observations from a re-analysis of the deposited data

Results flagged for a closer look

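Of 28 groups of 4 libraries (14 sgRNAs before and after screening), 2 held a library that stood apart from the other 3, measured as its gap to the nearest library over the whole range of the group. Chance alone gives this in about 1 of 20 groups. For YLQ5309 before screening, replicate 1 had 58.8 RPM against 64.5 to 65.5 RPM in the others (gap over range 0.855), and this is the library that lies nearest to the values after screening; without it the log2 fold change was -1.01. For YLQ5310 before screening, replicate 4 had 49.4 RPM against 66.3 to 67.1 RPM (gap over range 0.951), and without it the log2 fold change was 0.08 in place of 0.17.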

How the results depend on the processing

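Of the T047713 sgRNAs 2 were called depleted, and this count was 2 with DESeq2, with scaling by total counts or by the non-targeting sgRNAs, without a count filter and with at least 100 counts before screening. It was 1 to 2 when each library was left out in turn, where the lost call was that of YLQ5312 without before screening replicate 1 or 2. With the methods' two-tailed test after Benjamini-Hochberg adjustment it was 0 on log2(RPM + 1), with adjusted p of 0.0650 for YLQ5309 and 0.0665 for YLQ5312, and 1 on RPM, where YLQ5312 had 0.0512. In the whole screen the number of depleted targeting sgRNAs was 46, and it was 76 with DESeq2, 6 with the methods' test on log2(RPM + 1) and 21 on RPM. The log2 fold change ranged from -1.05 to -0.88 for YLQ5309 and from -0.84 to -0.72 for YLQ5312 over all alternatives, correction for GC content included. No sgRNA of T047724 was called under any of the 16 alternatives with a test. The median log2 fold change of T047713 moved between -0.20 (without after screening replicate 3) and -0.01 (without after screening replicate 2). That of T047724 moved between -0.19 and -0.01 over the alternatives, with -0.01 at a minimum of 100 counts in every library before screening and -0.04 without after screening replicate 1. With the replicate number as a block the count for T047713 was 2 and its median log2 fold change -0.09. Same-numbered libraries deviated together only weakly (correlations 0.11, 0.10, 0.06 and 0.05), although each correlated best with its own number, and the numbers were not taken as pairs. Depth limits what can be seen for YLQ5321, with 1 to 43 counts per library.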

Other observations

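The order of the seed counts was looked at with other seed lengths. With 9 bases followed by NGG, YLQ5309 occurred in 219 and YLQ5312 in 39 of the promoter windows, and the other oligos of T047713 in 0 to 14. With 11 bases the numbers were 4 for YLQ5309 and 3 each for YLQ5312 and YLQ5313, and with 12 bases 0 for YLQ5309 and 1 each for YLQ5312 and YLQ5313, so that YLQ5309 and YLQ5312 lead together with 9 and 10 bases and not with 11 or 12. In the whole screen 12 of 91 targeting sgRNAs (13.2%) with 10 or more windows by 11 bases were depleted, against 34 of 6035 (0.563%) with fewer. By 12 bases it was 3 of 17 (17.65%) against 43 of 6109 (0.704%). At this cut both YLQ5309 and YLQ5312 are in the class with fewer windows by 11 and by 12 bases. At a cut of 1 or more windows by 11 bases, 40 of 2718 (1.47%) were depleted, against 6 of 3408 (0.176%) with 0. Both oligos are then in the class with the higher share. By 12 bases it was 29 of 1482 (1.96%) against 17 of 4644 (0.366%), with YLQ5312 in the higher class and YLQ5309 in the lower. By 9 bases, with the cut at 10 or more windows, it was 39 of 2274 (1.72%) against 7 of 3852 (0.182%). The part of seed matches was not tested.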
